A study of Mus musculus with 2 samples.

Results

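The mir-181 family of the mouse consists of 6 microRNA (miRNA) genes that lie as 3 adjacent pairs on different chromosomes. It was described here in neonatal skeletal muscle. The members were taken by name, as the genes Mir181a-1, Mir181b-1, Mir181a-2, Mir181b-2, Mir181c and Mir181d among the 2202 miRNA genes counted, and all 6 were present in the tables. Small RNA was sequenced from the gastrocnemius, the main calf muscle, of B6CASTF1/J females at postnatal day 4, a hybrid of the C57BL/6J and CAST/EiJ strains. No treatment or engineered allele is named in the labels, so these samples form 1 group of 2 libraries, from separately numbered biological replicates. With a single group no condition could be contrasted with another, and the values describe the family in this muscle and its spread between these libraries. The 2 libraries held 10426665 and 8487769 reads, of which 5569392 and 4336759 were counted in a miRNA gene on its own strand.

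MiRNAs are short RNAs that guide Argonaute proteins to partly complementary messenger RNAs, chiefly through the seed near their 5′ end, and lower the output of those messages. Each is cut from 1 arm of a hairpin precursor, the 5′ arm (5p) or the 3′ arm (3p). In muscle, miR-181 is known for its rise during myoblast differentiation and for targeting the homeobox gene Hoxa11. It is also well known in lymphocytes, where miR-181a tunes antigen receptor signalling, and in endothelium, where miR-181b dampens inflammatory signalling.

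The 6 genes encode only 4 different 5p miRNAs, and which of them are unique to 1 gene decides how a read can be assigned. The mature forms, from RefSeq on the GRCm38.p6 assembly, were found for all 6 genes and are shown because the counts below turn on which of them are alike. Capitals mark the seed, bases 2 to 8.
miR-181a-5p, from Mir181a-1 and Mir181a-2: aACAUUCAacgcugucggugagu
miR-181b-5p, from Mir181b-1 and Mir181b-2: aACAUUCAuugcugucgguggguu
miR-181c-5p, from Mir181c: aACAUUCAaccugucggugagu
miR-181d-5p, from Mir181d: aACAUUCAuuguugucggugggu

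All 4 carry the seed ACAUUCA, and none of the other miRNAs among the 1679 mature names in that table has it. Outside the seed the forms differ little. Counted from 1 at the 5′ end, miR-181b-5p differs from miR-181a-5p by A9U, C10U and A21G over the length they share. Between miR-181b-5p and miR-181d-5p the only substitution is C12U. MiR-181c-5p is miR-181a-5p without its base at position 11.

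The 3p forms are different in every gene and fall into 4 seeds, again in capitals.
miR-181a-1-3p: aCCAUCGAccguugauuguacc
miR-181a-2-3p: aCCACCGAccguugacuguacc
miR-181b-1-3p: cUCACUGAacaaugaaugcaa
miR-181b-2-3p: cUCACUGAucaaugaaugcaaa
miR-181c-3p: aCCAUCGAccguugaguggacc
miR-181d-3p: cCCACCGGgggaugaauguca

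MiR-181a-1-3p and miR-181c-3p share a seed and differ by U16G and U19G, whereas miR-181a-1-3p and miR-181a-2-3p differ within the seed by U5C and beyond it by U16C. MiR-181b-1-3p and miR-181b-2-3p differ by A9U. The deposited counts are per gene, so reads of the 5p and 3p arms of a gene could not be told apart.

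Reads that matched several places were listed apart and belong to no gene, and for that reason the hairpins that carry the same 5p miRNA are shown whole. They are GENCODE M21 transcript sequences, written as RNA, and capitals mark the longest exact stretch shared with the other gene of the same letter.
Mir181a-1, chr1:137966455-137966541, plus strand: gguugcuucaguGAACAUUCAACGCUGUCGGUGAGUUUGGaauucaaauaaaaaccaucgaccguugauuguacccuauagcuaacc
Mir181a-2, chr2:38852735-38852810, plus strand: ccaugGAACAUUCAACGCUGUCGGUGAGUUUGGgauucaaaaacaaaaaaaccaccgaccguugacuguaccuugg
Mir181b-1, chr1:137966639-137966718, plus strand: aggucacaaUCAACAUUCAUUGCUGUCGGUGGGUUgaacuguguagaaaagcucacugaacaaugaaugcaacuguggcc
Mir181b-2, chr2:38853830-38853918, plus strand: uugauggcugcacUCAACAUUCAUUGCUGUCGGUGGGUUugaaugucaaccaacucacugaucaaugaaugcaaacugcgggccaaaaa

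Mir181a-1 and Mir181a-2 share 28 bases, which run from 1 base before the 23 bases of miR-181a-5p to 4 bases after them. Mir181b-1 and Mir181b-2 share 26 bases, from 2 bases before the 24 bases of miR-181b-5p to its last base. The next base, position 25 counted from the start of miR-181b-5p, is the first that differs downstream (G25U from Mir181b-1 to Mir181b-2). For the miR-181a pair that position is 28 (A28G from Mir181a-1 to Mir181a-2). A read lying wholly inside a shared stretch fits both genes and could be counted in neither. By exact match, a read of a 3p arm, or one reaching past the stretch, fits 1 gene. For the miR-181b pair the base at position 25 alone can decide this. Which mismatches the mapping allowed is not given in the sources used here. Mir181c shares at most 17 bases with any other counted gene and Mir181d at most 13. Only the 2202 counted genes were searched, not the rest of the genome.

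**Figure D1:**
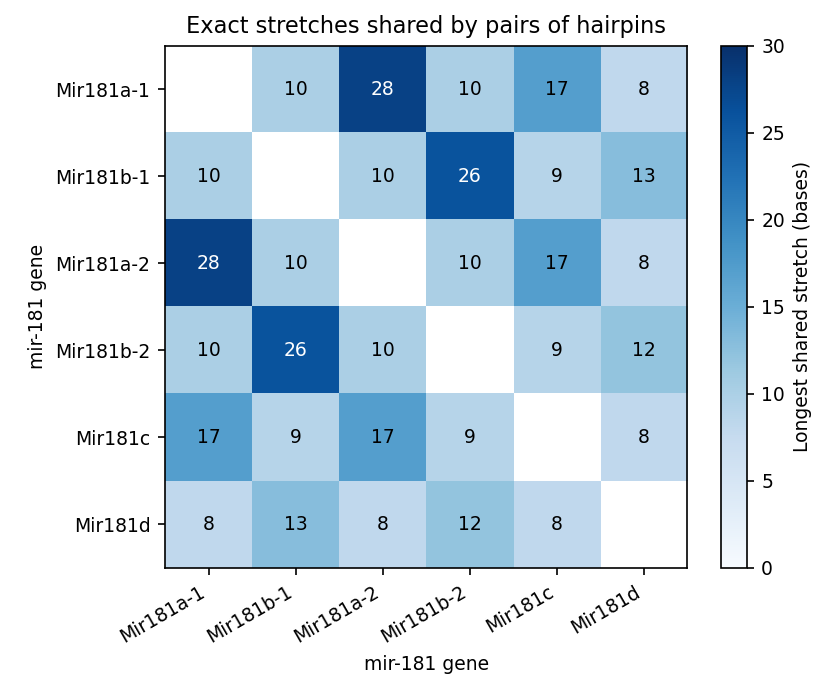
Longest exact stretch of bases shared by each pair of mir-181 hairpins, with both axes listing the 6 genes and darker cells marking longer stretches. The miR-181a pair (28 bases) and the miR-181b pair (26 bases) stand out, while Mir181d shares at most 13 with any member.

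The pairs lie in different surroundings, given here as mm10 coordinates with the GENCODE M21 annotation. On chromosome 1, Mir181a-1 and Mir181b-1 are 97 bases apart on the plus strand in an intron of the noncoding transcript gene Gm4258. There Mir181b-1 lies wholly in an exon of A430106G13Rik, a long noncoding RNA, and Mir181a-1 overlaps that gene's exon in part. Both also lie opposite to an intron of the long noncoding RNA gene Gm26936. On chromosome 2, Mir181a-2 and Mir181b-2 are 1019 bases apart on the plus strand. They lie opposite to, and within an intron of, Nr6a1, an orphan nuclear receptor gene on the minus strand. Mir181b-2 also lies wholly opposite to an exon of Gm44144, a minus-strand gene whose annotation awaits experimental support. Mir181c (chr8:84178873-84178961) and Mir181d (chr8:84178716-84178787) are 85 bases apart on the minus strand. Both sit in an intron of Nanos3, which encodes an RNA-binding protein of germ cells, on the strand of that gene. No member had a count on the opposite strand in either library.

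All 6 members were detected, meaning 2 CPM (counts per 1000000 gene counts) or more in both libraries, as were 335 of all counted genes. Together they had 12755 counts in library 1 and 10153 in library 2, which was 0.229% (exact Clopper-Pearson 95% interval 0.225 to 0.233) and 0.234% (0.230 to 0.239) of the gene counts. These intervals, and all others below, cover the counting error of reads only, with no term for the spread between animals or preparations. They can be too narrow even for that, because several reads can stem from 1 molecule when no molecular identifiers are used. The family total was 2290 CPM in library 1 and 2341 CPM in library 2, so the members' differences nearly cancelled in the sum. In a whole muscle, fewer cells of a type and less RNA per cell cannot be told apart.

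Among counts assigned to genes, the chromosome 8 pair stood highest. Mir181c had 4677 counts in library 1 and 3256 in library 2, or 840 and 751 CPM, with a mean of 795 ± 62.9 CPM (SD, n = 2). Mir181d had 3936 and 3039 counts, or 707 and 701 CPM, with a mean of 704 ± 4.22 CPM (SD, n = 2). These were the 90th and 95th most abundant of the 335 detected genes. Mir181c was above Mir181d in both libraries, by a ratio of 1.19 (exact 95% interval 1.14 to 1.24) and 1.07 (1.02 to 1.13). Divided by hairpin length, 89 bases for Mir181c and 72 for Mir181d, the order of these levels turned to 8.94 CPM per base for Mir181c and 9.77 for Mir181d. The levels are otherwise given undivided, and no other rank in the family changed on the per-base scale.

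The 2 members next in order came from different pairs. Counts of Mir181b-2 were 1799 and 2093 in libraries 1 and 2, or 323 and 483 CPM, and averaged 403 ± 113 CPM (SD, n = 2). Mir181a-1 had 2186 and 1664 counts, or 393 and 384 CPM, and averaged 388 ± 6.23 CPM (SD, n = 2). Their order was not stable. The ratio of Mir181b-2 to Mir181a-1 was 0.823 in library 1 and 1.26 in library 2, so these neighbours did not differ beyond the spread between libraries. Both stayed below Mir181d in each library, which exceeded Mir181b-2 by 2.19 and 1.45 times.

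The remaining members were far lower. Counts of Mir181a-2 were 138 and 70, which gave 24.8 and 16.1 CPM and a mean of 20.5 ± 6.11 CPM (SD, n = 2). Mir181b-1 had 19 and 31 counts, which gave 3.41 (exact Poisson 95% interval 2.05 to 5.33) and 7.15 (4.86 to 10.1) CPM and a mean of 5.28 ± 2.64 CPM (SD, n = 2). It was the lowest member in both libraries, and its levels rest on few reads. In assigned counts Mir181c exceeded Mir181b-1 by 246 times in library 1 and by 105 times in library 2. Reads of miR-181b-5p that fit both of its genes are absent from Mir181b-1, whereas no other counted gene holds miR-181c-5p. These ratios thus compare genes of which unlike parts could be counted, and the same limit holds for Mir181a-2.

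**Figure D2:**
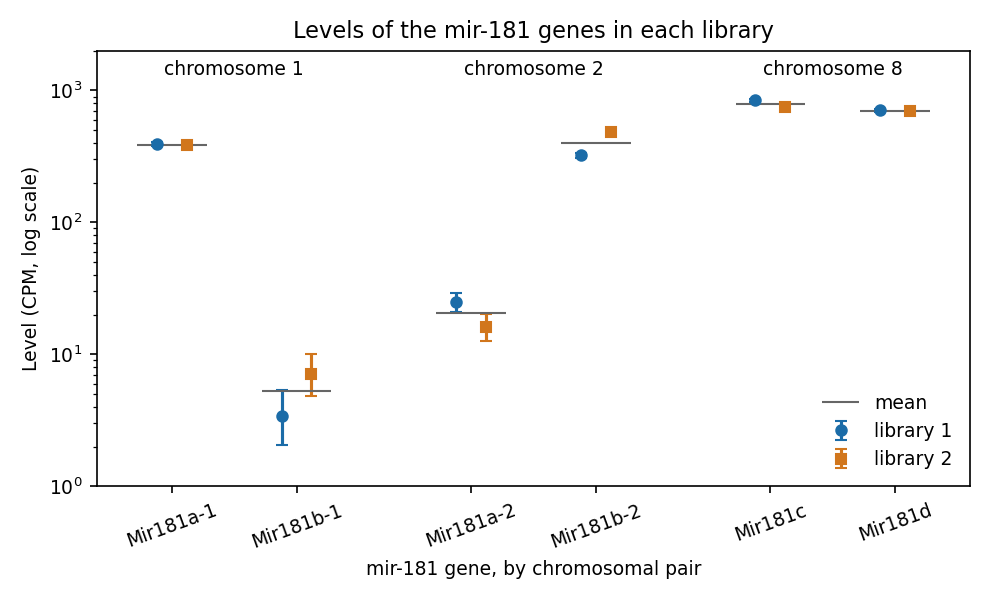
Level of each mir-181 gene in CPM on a log axis, grouped by chromosomal pair, with circles for library 1, squares for library 2, bars for exact Poisson 95% intervals and lines for the mean. Mir181c and Mir181d average 795 and 704 CPM, while Mir181b-1 and Mir181a-2 stay below 30 CPM.

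The chromosome 1 and chromosome 2 pairs were unequal in opposite ways. On chromosome 1, Mir181a-1 held 99.1% (exact Clopper-Pearson 95% interval 98.7 to 99.5) of the pair's counts in library 1 and 98.2% (97.4 to 98.8) in library 2. On chromosome 2 the other letter led, since Mir181b-2 held 92.9% (91.6 to 94.0) and 96.8% (95.9 to 97.5). The chromosome 8 pair was nearly even, with 54.3% (53.2 to 55.4) and 51.7% (50.5 to 53.0) in Mir181c. Between genes with the same 5p miRNA, Mir181a-1 held 94.1% and 96.0% of the counts of the miR-181a genes, and Mir181b-2 held 99.0% and 98.5% of those of the miR-181b genes. In each same-letter pair, 1 gene thus took nearly all assigned reads, but on different chromosomes. As all 4 of these genes share 26 or 28 bases with another, this division covers only reads that could be assigned. By exact match these are reads that reach outside the shared stretches.

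By pair, chromosome 8 held 67.5% (66.7 to 68.3) of the family's counts in library 1 and 62.0% (61.0 to 62.9) in library 2. The chromosome 1 pair held 17.3% and 16.7%, and the chromosome 2 pair held 15.2% and 21.3%. The chromosome 1 and chromosome 2 pairs changed places between the libraries, while chromosome 8 led in both. The multimapping line held 36.9% and 37.6% of all reads, and per family count it held 301 and 314 reads. Any miR-181a-5p or miR-181b-5p reads in it are absent from these shares, and how many there are is not known.

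**Figure D3:**
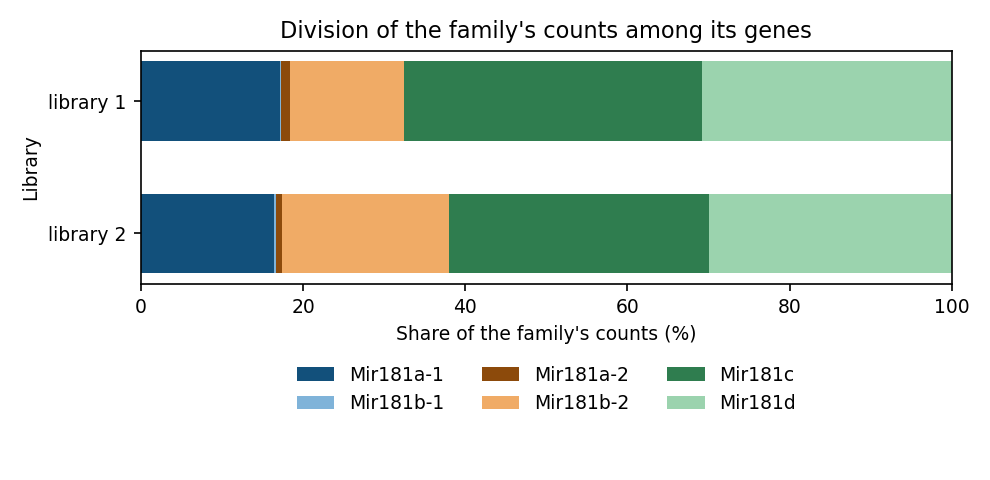
Share of the family's counts in percent held by each of the 6 genes, stacked, with 1 bar per library. Mir181c and Mir181d together fill 67.5% and 62.0% of the bars, and Mir181b-2 is the segment that widens from 14.1% to 20.6%.

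The members did not move together between the libraries. Each biological replicate gave a single library, so a difference between animals cannot be told apart from one of dissection or library preparation. The libraries were compared by an exact two-sided binomial test of each gene's counts given the scaled library totals, with Benjamini-Hochberg adjustment over all 335 detected genes. This test compares 2 libraries and no conditions. It called 4 of the 6 members, 2 in each direction, against 55.5% of all detected genes called, 28.7% as higher in library 2 and 26.9% as higher in library 1. The members' count is thus close to the background. Their median log2 ratio of library 2 to library 1 was -0.04, beside 0.03 over all detected genes.

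Mir181b-2, at 323 CPM in library 1 and 483 in library 2, was higher in library 2 by a log2 ratio of 0.56 (exact 95% interval 0.47 to 0.65; adjusted p = 1.57e-32). Its neighbour on chromosome 2, Mir181a-2, was lower in library 2 at -0.64 (-1.08 to -0.22; adjusted p by the exact test 0.00557). The intervals of these neighbours do not overlap, and without any scaling the share of Mir181a-2 in the pair was 7.12% (6.02 to 8.36) in library 1 and 3.24% (2.53 to 4.07) in library 2. Mir181c was lower in library 2 at -0.18 (-0.25 to -0.12; adjusted p by the exact test 6.95e-08). Mir181b-1 was higher in library 2 at 1.04 (0.18 to 1.95; adjusted p by the exact test 0.0281), a call lost at an adjusted p of 0.0579 when every gene with 1 count or more was tested. Over its alternatives the exact test gave adjusted p from 0.0199 to 0.0579.

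Mir181a-1 at -0.06 (-0.15 to 0.04) and Mir181d at -0.03 (-0.10 to 0.03) did not pass, with adjusted p by the exact test of 0.343 and 0.443. Both passed as higher in library 1 with DESeq2 size factors, at -0.13 and -0.11, with adjusted p by the exact test of 0.0117 and 0.00390. Over all alternatives these adjusted p ranged from 0.0117 to 0.624 for Mir181a-1 and from 0.00390 to 0.819 for Mir181d. With DESeq2 size factors 73 of all detected genes were called higher in library 2 and 117 higher in library 1, in place of 96 and 90. The calls on Mir181b-2, Mir181a-2 and Mir181c held under each scaling and detection limit tried. With the reported settings both miR-181b genes were thus called higher in library 2, and neither miR-181a gene was. The call on Mir181b-1 rests on 19 and 31 counts and did not hold when every gene with 1 count or more was tested. By absolute log2 ratio Mir181b-1 ranked 20th, Mir181a-2 46th and Mir181b-2 55th of the 335 genes. The other 3 members ranked from 191st to 311th.

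**Figure D4:**
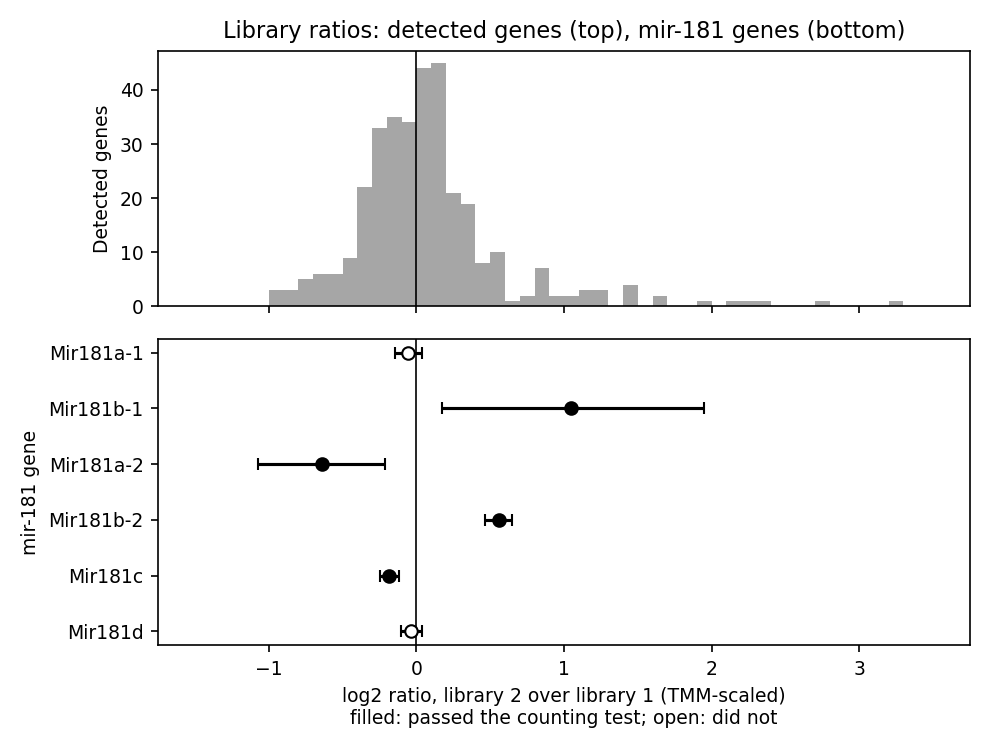
Log2 ratio of library 2 to library 1 after TMM scaling. The top panel is a histogram of the 335 detected genes, and the bottom panel shows each mir-181 gene with its exact 95% interval, filled where it passed the counting test. Mir181b-2 and Mir181b-1 lie to the right at 0.56 and 1.04, and Mir181a-2 lies to the left at -0.64.

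Markers of cells in which miR-181 is known also differed between the libraries. Of 6 leukocyte genes, 5 were detected and 4 were called higher in library 1, against 26.9% of all detected genes. Their summed level was 1013 CPM in library 1 and 652 in library 2, with Mir146b at 0 counts in both. Mir223, a myeloid gene, had 331 and 184 CPM, and Mir142, a haematopoietic gene, had 161 and 94.5 CPM. Mir146, induced by inflammatory signalling, had 357 and 244 CPM, and Mir150 had 72.2 and 47.5 CPM. The endothelial gene Mir126a had 29519 and 21931 CPM and was called higher in library 1, while Mir126b, its companion within the same hairpin locus, had 3 and 2 counts. Mir126a and Mir142 overlap counted genes of the opposite strand, and their values hold for own-strand counts alone. The remaining detected leukocyte gene, Mir155, had 92.8 and 81.9 CPM and was not called. The called genes of these leukocyte and endothelial lists were lower in library 2, as Mir181a-2 and Mir181c were, and opposite to Mir181b-2 and Mir181b-1. This holds for the lists chosen, since 28.7% of all detected genes were called higher in library 2, as the miR-181b genes were. The part of these markers in the members' differences was not tested.

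Markers of the labelled tissue were present at very unequal levels. Of 9 skeletal muscle genes 8 were detected and none was at 0 counts. The median of the 9, the undetected gene included, was 82.9 CPM. The median of 123 CPM over all detected genes leaves undetected genes out, so these medians are not alike. Reads that match several places are absent from these levels too, and their number per gene is not known. Mir206, the most abundant gene of the tables, had 129336 and 119323 CPM. Mir499 and Mir208b, both hosted by myosin heavy chain genes, had 1292 and 1047 CPM and 187 and 125 CPM. In all, 3 of the 8 were called higher in library 1, 1 higher in library 2 and 4 were not called. Over all detected genes 26.9% were called higher in library 1 and 28.7% higher in library 2.

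Other families with sequence shared between hairpins gave a frame for the order of the levels. A shared stretch need not hold a whole mature form, and mature forms were compared for the mir-181 family alone. A stretch of at least 20 bases in common with another counted hairpin was found for 81 (24.2%) of the 335 detected genes, and their median was 78.2 CPM against 139 CPM for the rest. In the mir-181 family the 4 sharing members ranged from 5.28 to 403 CPM and the others from 704 to 795 CPM. In the mir-30 family, Mir30c-1 and Mir30c-2 share such a stretch and had 40.5 and 46.8 CPM, and the other 4 members ranged from 101 to 5951 CPM, led by Mir30d, Mir30a and Mir30e. In the mir-29 family, known for collagen targets, 3 members share one and ranged from 1.83 to 57.0 CPM. Mir29c was the highest of these, Mir29b-1 was among them, and Mir29a had 94.1 CPM. The lowest sharing mir-29 member was under the detection limit. Whether the stretch in Mir29c makes its mature reads fit another gene was not tested. In each of these 3 families the sharing members lay below the others. The families were chosen with earlier results of these data known, and no other family was compared in this way. The sharing members held 35.3% of the summed CPM in the mir-181 family, 0.698% in mir-30 and 39.5% in mir-29. Whether the uncounted reads set this order was not tested. Of the mir-30 genes, 2 were called higher in library 2, 3 higher in library 1 and 1 was not called. None of the 3 detected mir-29 genes was called, against 55.5% of all detected genes called in either direction.

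The genes nearest to Mir181c in level were found by Euclidean distance of log2 CPM over the 2 libraries. They were Mir1193 with 817 and 661 CPM at a distance of 0.19, Mir196a-2 with 872 and 861 CPM at 0.21, and Mir872 with 899 and 858 CPM at 0.22. With 2 libraries this is a likeness of level alone.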

How the data were processed

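Small RNA below 30 bases was sequenced in 2 libraries of 1 group, grouped by the labels. The deposited files hold raw counts per gene in 3 columns, which by their sums are reads without regard to strand, on the gene's own strand and on the opposite strand. They were made on mm10 with annotation M21, per a note deposited beside them. Which aligner and counter were used is not given in the sources used here. The 4 lines that name no gene, 46.6% and 48.9% of the reads, stayed out of totals and tests. All 2202 identifiers matched GENCODE M21, and all 27 genes in 5 lists beside the family were found.

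Own-strand counts were scaled to CPM. Library totals were scaled by TMM over genes at 2 CPM or more in both libraries (edgeR 4.0.16, R 4.3.3), with DESeq2 1.42.0 as an alternative, and tested by exact binomial tests with Benjamini-Hochberg adjustment at 0.05. A quasi-likelihood contrast needs replicated groups and was not possible. The counting test was checked on counts simulated with counting error alone. That check cannot show how the test behaves under spread between animals or preparations. Python 3.11.15, scipy 1.17.1, numpy 2.4.6, pandas 2.3.3 and matplotlib 3.10.9 were used.

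The members, lists and tests were chosen with earlier results of these data known. Genes named are the 6 members, the 3 highest of each list and the 3 nearest to the highest member. Mir146b, Mir150, Mir155, Mir30c-1, Mir30c-2 and the muscle genes below the 3 highest were named after their values were seen. Alternatives were unstranded counts, other scaling, other detection limits, all reads as the total, each library alone, levels per base and shared stretches of 18 and 24 bases.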

Additional observations from a re-analysis of the deposited data

Results flagged for a closer look

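Signal lay outside the gene counts used. Reads that match several places made up 36.86% of all reads in library 1 and 37.56% in library 2. They are listed in a line of their own and belong to no gene, so this share says nothing of mir-181 genes in particular. How many of these reads came from mir-181 genes was not tested.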

How the results depend on the processing

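Per 1000000 of all reads, in place of gene counts, the mean levels were 203 for Mir181a-1, 10.7 for Mir181a-2, 210 for Mir181b-2, 416 for Mir181c and 368 for Mir181d. Ignoring strand left every member's count as it was but lowered the totals, and gave 442 CPM for Mir181a-1, 906 for Mir181c and 802 for Mir181d. The number of called members was 4 as reported and ranged from 3 to 6. It was 6 with DESeq2 size factors and with TMM over all counted genes, an alternative chosen after seeing the data, and 3 with detection at 10 CPM, which leaves out Mir181b-1, or at 1 count. No log2 ratio changed sign. Each library alone gave the per-library values in the report, with no test. Depth limits Mir181b-1 and Mir181a-2 most, and a count of 0 would have allowed 0.539 and 0.692 CPM. Stretches of 18 or 24 bases left 4 members sharing. Among 86 values under alternatives, 8 levels, those given above, moved by more than the SD between libraries, 4 tests of a member gained a call and 1 lost it. Values from each library alone could not count as moved, because with 2 libraries each lies within the SD of their mean. Shares without regard to strand were fixed too, because the members' counts stayed as they were. Neither kind of value tests how stable the results are. No paired analysis was possible because there is 1 group.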
